A study of Bos taurus with 20 samples.

Results

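Tight junction genes were examined in bovine morulae from X- or Y-sorted sperm that had been cultured with DKK1 or vehicle. The genes were 6 claudins (*CLDN1*, *CLDN3*, *CLDN4*, *CLDN6*, *CLDN7* and *CLDN10*), occludin (*OCLN*), the scaffold *TJP1* and the adhesion molecule *F11R*. They were chosen by gene symbol. Each of the 9 has 1 probe set that the array annotation assigns to that symbol alone, among 18457 such probe sets for 18010 genes and 26773 probe sets in all.

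The 4 groups were female DKK1, female control, male DKK1 and male control, with 5 arrays each. Each array carried the RNA of 1 pool of 20 in vitro produced *Bos taurus* morulae, amplified before hybridization because little RNA was obtained. Recombinant human DKK1 was added on day 5 at 100 ng/ml and embryos were collected 24 h later, on day 6, while controls received the vehicle (phosphate buffered saline with albumin). Sperm were pooled from several bulls and the zona pellucida was removed before RNA extraction. Sperm sorting does not give the desired sex in every embryo, pools held both compacted and non-compacted morulae, and no blastocysts were collected. In such pools, fewer cells with a transcript and less transcript per cell cannot be told apart.

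Tight junctions seal the space between neighbouring epithelial cells. Claudins are membrane proteins with 4 transmembrane segments that polymerise into the junction strands. Most tighten the seal, whereas *CLDN10* is known mainly for forming ion-selective pores. Occludin lies in the same strands, *F11R* (JAM-A) is an immunoglobulin-like adhesion molecule at the junction, and *TJP1* (ZO-1) is the scaffold that ties claudins and occludin to actin. In the preimplantation embryo the outer cells build these junctions around compaction, and the seal is needed for the blastocoel to fill. DKK1 is a secreted inhibitor of canonical WNT signalling.

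The deposited values are log2 intensities after robust multi-array average (RMA) normalization, with array medians from 4.58 to 4.82. Probe sets with a mean log2 intensity of at least 5.48, before rounding, are called the brighter set below. All 6 pluripotency genes and all 6 trophectoderm genes listed as morula markers were in the brighter set, as were 2 of 4 hypoblast genes. Of 9 cumulus and granulosa cell genes and 4 sperm genes measured, 0 were in it, although the sperm gene *TNP1*, at 5.476, missed it narrowly. The array labelled male control replicate 2 stood apart. Its *XIST* value was 8.81, within the female range of 8.42 to 10.03 and above the 6.30 to 8.22 of the other 9 male arrays. Its *DDX3Y* value was 4.82, within the female range of 2.65 to 5.43 and below the 6.29 to 8.36 of the other male arrays. It held the lowest of the 20 values for 23.4% of the brighter set, against 1.26% to 7.91% for each other array. It was kept under its label, and values that it moves are also given without it.

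Of the 9 genes, 8 were in the brighter set, and *CLDN1* was not. *F11R* and *CLDN6* had mean log2 intensities of 10.65 and 10.58 over the 20 arrays, at the 98.2nd and 98.0th percentiles of all probe sets. *CLDN10* averaged 9.60 (95.6th percentile), *CLDN4* 8.66 (91.4th), *TJP1* 8.62 (91.1st) and *OCLN* 8.54 (90.7th). *CLDN7* averaged 7.35 (82.2nd percentile) and *CLDN3* 5.82 (67.4th). *CLDN1*, a sealing claudin of many epithelia, averaged 3.47 at the 26.6th percentile, and on single arrays it lay between the 23.3rd and 34.3rd. Probes differ in how strongly they bind, so these percentiles place each probe set on the array and do not rank the genes by transcript number.

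**Figure D1:**
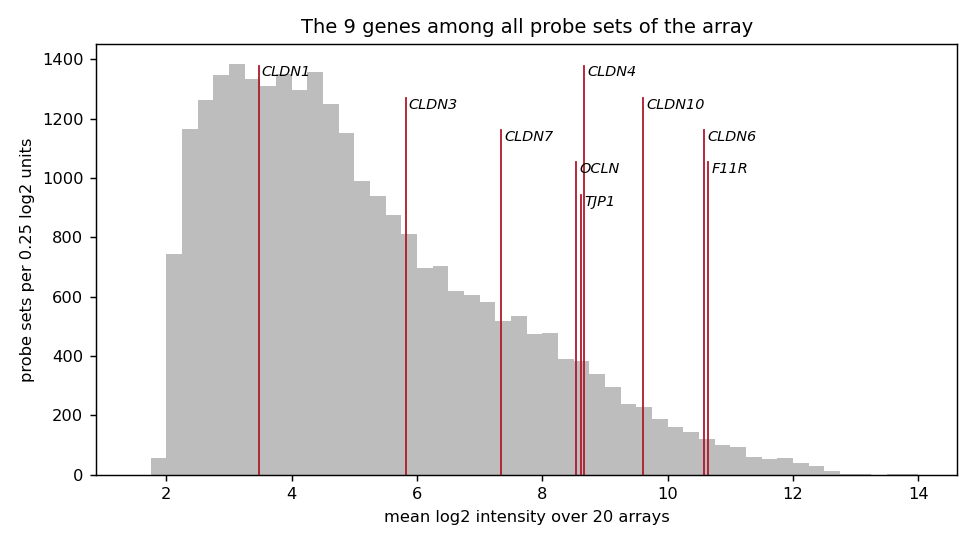
Histogram of the mean log2 intensity over 20 arrays (x axis) of all 26773 probe sets (y axis, probe sets per 0.25 log2 units), with a line at the mean of each of the 9 genes. *CLDN1* sits at 3.47 in the bulk of dim probe sets, *CLDN3* at 5.82 is next, and the other 7 lie between 7.35 and 10.65.

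*CLDN3* (probe set 12811594), a sealing claudin, had the largest DKK1 effect of the 9 genes within a sex. In male DKK1 embryos it measured 5.92, 6.17, 5.78, 6.28 and 6.12 in replicates 1 to 5. In male control embryos it measured 5.35, 5.06, 5.06, 5.72 and 5.70. Every male DKK1 array lay above every male control array, although the gap between the nearest values, 5.78 and 5.72, was small. The means were 6.05 ± 0.20 in male DKK1 and 5.38 ± 0.32 in male control embryos (SD, n = 5).

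The difference for *CLDN3* in males was 0.68 (SE 0.216, 95% interval 0.22 to 1.13), a fold of 1.60. It passed an unadjusted P of 0.05 in limma but not adjustment over all probe sets (adjusted P = 1.00), and it ranked 104th of the 26773 probe sets by P in that comparison. An exact two-sided permutation test of the 5 arrays against 5 gave P = 0.00794, the smallest that this design allows. Any probe set without overlap gets this P, so the test restates the separation. Of all probe sets, 0.687% had no overlap between male DKK1 and male control arrays. Without male control replicate 2 the difference was 0.60 (SE 0.228) and passed the unadjusted threshold. Trophectoderm markers averaged 8.86 to 9.41 per array in male DKK1 and 8.79 to 9.41 in male control embryos. Pluripotency markers averaged 8.81 to 9.01 in male DKK1 and 8.80 to 9.09 in male control embryos.

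In females *CLDN3* showed no such separation. It measured 5.48, 6.15, 5.58, 5.73 and 6.55 in female DKK1 embryos. In female control embryos it measured 5.71, 5.63, 5.91, 5.84 and 6.62. The groups overlapped over most of their range, with 1 high array in each, both of them replicate 5. The means were 5.90 ± 0.45 in female DKK1 and 5.94 ± 0.39 in female control embryos (SD, n = 5). The difference was -0.05 (SE 0.216, 95% interval -0.50 to 0.41, exact two-sided permutation P = 0.865).

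The DKK1 effect on *CLDN3* in females minus that in males was -0.72 (SE 0.306, 95% interval -1.36 to -0.08, limma, adjusted P = 1.00). *CLDN3* was the 1 gene of 9 whose interaction passed an unadjusted P of 0.05, beside 4.19% of all probe sets. The direction of the estimate stayed the same when any of the 20 arrays was left out, but it no longer passed the unadjusted threshold without any 1 of 6 arrays. It was -0.62 (SE 0.308) and -0.64 (SE 0.315) without female DKK1 replicates 1 and 3, and -0.55 (SE 0.279) without female control replicate 5. It was -0.67 (SE 0.320) without male DKK1 replicate 4, and -0.64 (SE 0.314 and 0.315) without male control replicate 2 or 3. Male control embryos had the lowest mean of the 4 groups, and the other 3 means lay between 5.90 and 6.05.

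**Figure D2:**
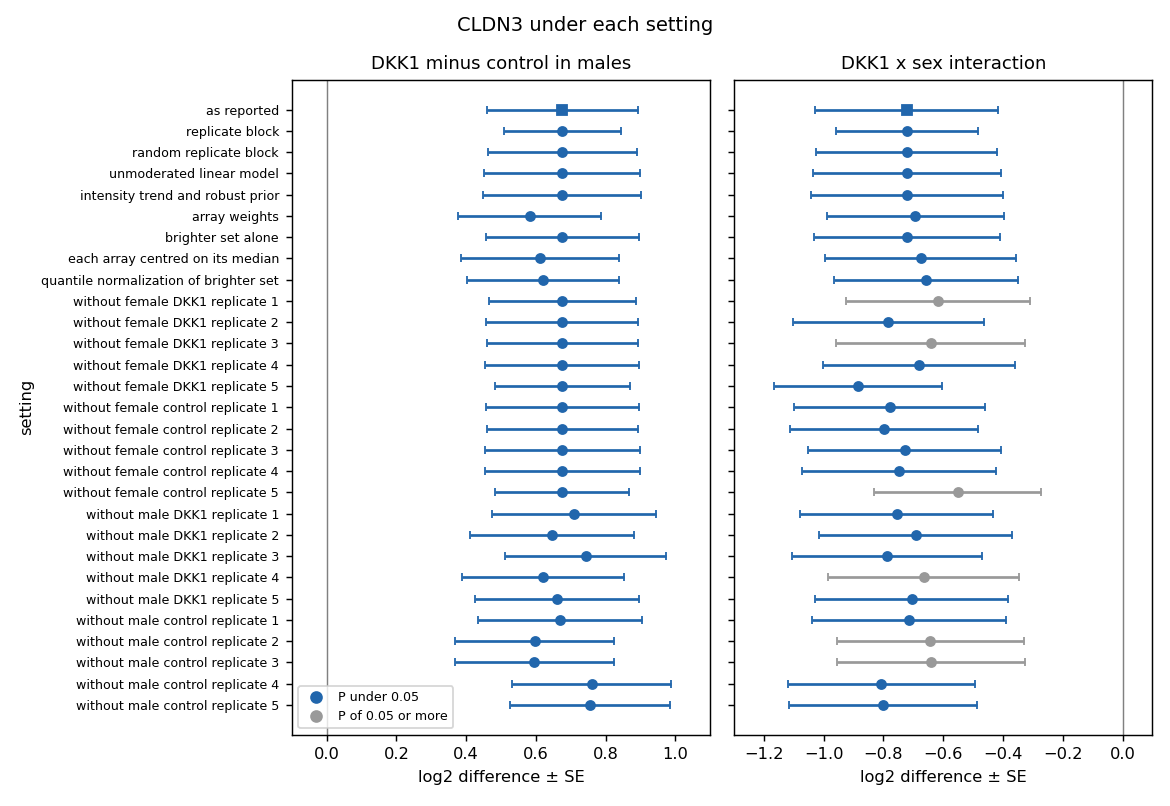
Log2 difference ± SE (x axes) of *CLDN3* for DKK1 minus control in males and for the DKK1 x sex interaction, under the reported fit and 28 alternatives (y axis), blue where the unadjusted P is under 0.05 and grey otherwise. The male difference is between 0.58 and 0.76 and blue throughout, and the interaction is between -0.89 and -0.55 and grey for 6 of the left-out arrays. Leaving out a female array cannot move the male difference, only its SE and P.

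*CLDN4* (probe set 12815339), also a sealing claudin and the gene next to *CLDN3* in the cattle gene table, did not show the same separation in males. It ranged from 8.25 to 8.88 in male DKK1 and from 8.09 to 9.18 in male control embryos, a difference of -0.08 (SE 0.262, 95% interval -0.63 to 0.47), and of 0.06 (SE 0.267) without male control replicate 2. In females it ranged from 7.79 to 9.34 with DKK1 and from 8.23 to 9.31 in controls, a difference of 0.02 (SE 0.262, 95% interval -0.53 to 0.57). *CLDN4* had the largest within-group SD of the 9 genes, 0.43, so differences of the size seen for *CLDN3* were measured least precisely in this gene.

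*CLDN6* (probe set 12816326), a claudin best known from embryonic epithelia and pluripotent cells, varied little apart from 1 array. It measured 10.66, 10.49, 10.49, 10.79 and 10.49 in female DKK1 embryos, against 10.76, 10.48, 10.47, 10.52 and 10.78 in female control embryos. In male DKK1 embryos it measured 10.81, 10.92, 10.60, 10.69 and 10.62, against 10.65, 9.59, 10.66, 10.45 and 10.61 in male control embryos. The female groups overlapped almost fully, and in males 3 of 5 DKK1 arrays lay above all controls. The male difference was 0.33 (SE 0.165, exact two-sided permutation P = 0.0952) and was 0.13 (SE 0.105) without male control replicate 2. The female difference was -0.02 (SE 0.165, 95% interval -0.36 to 0.33).

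*CLDN7* (probe set 12769973), a claudin of many simple epithelia that also occurs along the lateral membrane, had its highest group mean in female DKK1 embryos. It measured 7.75, 7.33, 7.29, 7.78 and 7.87 in female DKK1 embryos, against 7.45, 7.21, 6.90, 7.28 and 7.07 in female control embryos. In females 3 of 5 DKK1 arrays lay above every control, and the other 2 lay within the control range. The female means were 7.60 ± 0.27 with DKK1 and 7.18 ± 0.21 in controls (SD, n = 5). The difference was 0.42 (SE 0.219, 95% interval -0.04 to 0.88) and did not pass the unadjusted threshold in limma. It passed with a fixed replicate block (SE 0.185), but pairing by replicate number was not established. The exact two-sided permutation test gave P = 0.0397. This test was run for all 9 genes in each sex, 18 tests, and 2 gave a P under 0.05, this one and *CLDN3* in males. It was not run on the other probe sets, so this count has no share of all probe sets beside it.

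In males *CLDN7* measured 8.03, 6.78, 6.90, 6.89 and 7.67 with DKK1, against 7.38, 6.90, 7.46, 7.67 and 7.34 in controls. The male DKK1 arrays split widely, with 3 below 7 and 1 above 8, and they covered the whole control range. The male difference was -0.10 (SE 0.219, 95% interval -0.56 to 0.36) and the interaction was 0.52 (SE 0.310, 95% interval -0.13 to 1.17). Without male control replicate 2 they were -0.21 (SE 0.224) and 0.63 (SE 0.308). Without male DKK1 replicate 1, the highest of the 20 arrays, the interaction was 0.71 (SE 0.268). That passed the unadjusted threshold but not the adjusted one (limma, adjusted P = 1.00). It was the 1 fit to pass of the 20 that each leave out 1 array. Over those 20 fits, 984 to 1247 of all probe sets passed unadjusted for the interaction.

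*CLDN10* (probe set 12709231) ranged from 9.31 to 9.91 in female DKK1, 9.29 to 9.95 in female control, 9.26 to 9.83 in male DKK1 and 9.27 to 9.79 in male control embryos. Its DKK1 differences were -0.05 in females and -0.02 in males (SE 0.149 each), and its 95% interval for DKK1 over both sexes was -0.26 to 0.18. *CLDN1* (probe set 12678900) ranged from 3.27 to 3.68 in female DKK1, 3.39 to 3.79 in female control, 3.25 to 3.76 in male DKK1 and 3.21 to 3.66 in male control embryos, with differences of -0.14 in females and 0.01 in males (SE 0.125 each). In females 4 of 5 DKK1 arrays lay below every control for *CLDN1*, and the fifth lay inside the control range. Without male control replicate 2 the male differences were -0.11 (SE 0.148) for *CLDN10* and 0.06 (SE 0.129) for *CLDN1*. Neither gene separated DKK1 from control arrays in either sex.

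**Figure D3:**
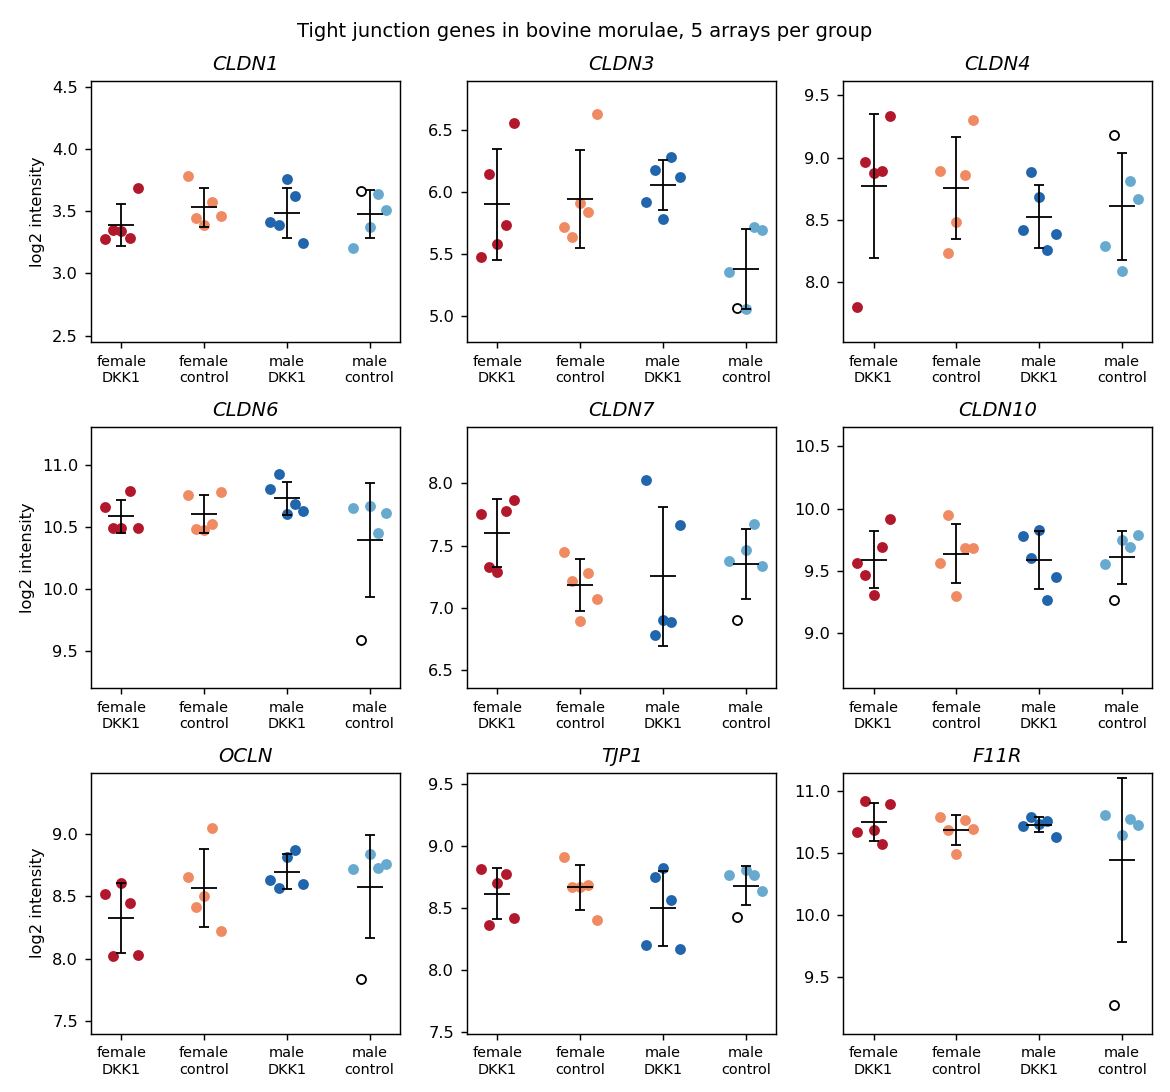
Log2 intensity (y axes, each spanning the same 2.1 units) of the 9 genes on every array in female DKK1, female control, male DKK1 and male control embryos. Bars are the mean ± SD of 5 arrays, and the open circle is male control replicate 2. *CLDN3* in males is the 1 pair of DKK1 and control groups of a sex that does not overlap, and the open circle is far below the others for *CLDN6*, *OCLN* and *F11R*.

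*OCLN* (probe set 12787357), encoding occludin, measured 8.52, 8.02, 8.61, 8.45 and 8.03 in female DKK1 embryos, against 8.66, 8.42, 8.51, 9.05 and 8.22 in female control embryos. In male DKK1 embryos it measured 8.63, 8.57, 8.82, 8.88 and 8.60, against 8.72, 7.84, 8.84, 8.73 and 8.76 in male control embryos. Apart from 1 array, the male values kept to a narrow band and the female values reached lower. DKK1 differences were -0.24 in females (SE 0.190, 95% interval -0.64 to 0.15) and 0.12 in males (SE 0.190, 95% interval -0.28 to 0.52). The male difference was -0.06 (SE 0.157) without male control replicate 2.

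The female minus male difference of *OCLN* was -0.19 (SE 0.134, 95% interval -0.47 to 0.09). Without male control replicate 2 it was -0.28 (SE 0.108, limma, adjusted P = 0.686) and passed the unadjusted threshold, in a fit where 6.02% of all probe sets had a P under 0.05. *MARVELD2*, which encodes tricellulin, the occludin relative at tricellular contacts, lies next to *OCLN* in the gene table. Unlike *OCLN*, it was lower in females at the unadjusted P with all arrays, as were 2.32% of all probe sets. *MARVELD2* averaged 6.99 ± 0.51 in female DKK1, 6.85 ± 0.25 in female control, 7.26 ± 0.28 in male DKK1 and 7.39 ± 0.34 in male control arrays (SD over 5 pools). Its sex contrast, females minus males, was -0.40 (SE 0.156, limma, adjusted P = 0.865) with all arrays and -0.33 (SE 0.149) without male control replicate 2.

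*TJP1* (probe set 12791835) ranged from 8.37 to 8.81 in female DKK1, 8.41 to 8.91 in female control, 8.17 to 8.82 in male DKK1 and 8.43 to 8.81 in male control embryos. In males 2 of 5 DKK1 arrays, at 8.20 and 8.17, lay below all controls. Its DKK1 differences were -0.05 in females (SE 0.144) and -0.18 in males (SE 0.144, exact two-sided permutation P = 0.246), and -0.24 in males (SE 0.148) without male control replicate 2.

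*F11R* (probe set 12835846) was the steadiest of the 9 genes once 1 array was set aside. It measured 10.67, 10.92, 10.68, 10.57 and 10.89 in female DKK1 embryos, against 10.79, 10.68, 10.49, 10.77 and 10.69 in female control embryos. In male DKK1 embryos it measured 10.72, 10.79, 10.73, 10.76 and 10.63, against 10.81, 9.27, 10.65, 10.77 and 10.72 in male control embryos. Of the 20 arrays 19 lay within 0.43 of each other, and male control replicate 2 deviated by -1.46 from the mean of the other male controls. The male DKK1 difference was 0.28 (SE 0.211) with that array and -0.01 (SE 0.0935) without it. The within-group SD was 0.343 with it and 0.108 without it. Without it, 2.31% of the brighter set had a smaller SD.

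**Figure D4:**
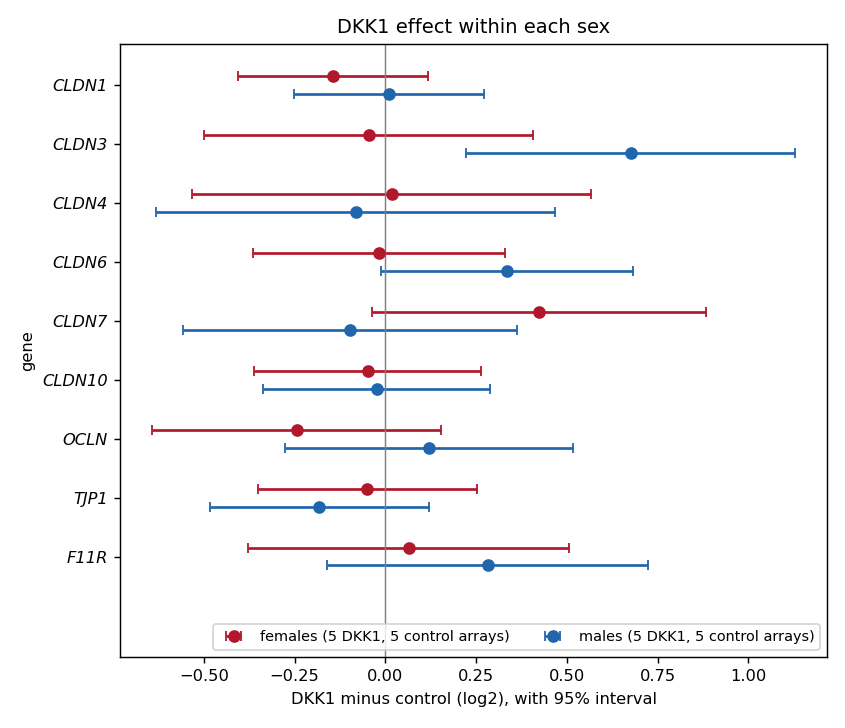
DKK1 minus control difference (x axis, log2) of the 9 genes (y axis) in females (red) and in males (blue), 5 arrays a group, with the 95% interval from limma. The interval of *CLDN3* in males, 0.22 to 1.13, is the 1 of 18 that leaves out 0.

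Over both sexes, 0 of the 9 genes differed between DKK1 and control embryos at an unadjusted P under 0.05 in limma, beside 3.97% of all probe sets. The nearest was *CLDN3*, with a difference of 0.31 (SE 0.153, 95% interval -0.01 to 0.64). The median difference of the 9 was -0.03, beside -0.02 over all probe sets and 0.03 over the brighter set. The outermost 95% limits of the 9 genes were -0.42 and 0.64. Within females 0 of 9 had a P under 0.05 (4.09% of all probe sets), and within males 1 of 9 did, *CLDN3* (4.03%). With a fixed replicate block *CLDN3* passed over both sexes and *CLDN7* in females, although pairing by replicate number was not established. Over the 8 alternatives that keep every array, up to 1166 of all probe sets passed for DKK1 and up to 1264 in females. At an adjusted P under 0.05, 0 of 9 passed for DKK1, the interaction, DKK1 within each sex or sex, where 0%, 0.00374%, 0.00374%, 0% and 0.0336% of all probe sets passed. DKK1 and control arrays did not overlap for 1 of the 18 pairs of gene and sex, *CLDN3* in males. Of all probe sets, 0.687% had no overlap in males and 0.680% in females.

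For sex, 0 of the 9 genes passed the unadjusted threshold in limma with 10 female and 10 male arrays, beside 4.82% of all probe sets. The differences ran from -0.19 for *OCLN* to 0.21 for *CLDN3*, with a median of 0.05 beside -0.01 over all probe sets. Female minus male intervals were -0.16 to 0.26 for *TJP1*, -0.21 to 0.28 for *CLDN6* and -0.21 to 0.24 for *CLDN10*. These include male control replicate 2. Without it the differences were 0.02 (SE 0.101) for *TJP1*, -0.07 (SE 0.0721) for *CLDN6* and -0.03 (SE 0.102) for *CLDN10*, so the estimates for *CLDN6* and *CLDN10* changed sign, and those of the 9 genes ran from -0.28 for *OCLN* to 0.27 for *CLDN4*.

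Arrays differed from their group means in some genes together. Over the 20 arrays, the deviations of *CLDN6* and *F11R* had a Pearson r of 0.82, which was -0.07 over the 19 arrays without male control replicate 2. That array was the lowest of 20 for *CLDN6*, *OCLN* and *F11R*, the second lowest for *CLDN3* and *CLDN10*, and among the 3 highest for *CLDN4*. *OCLN* and *TJP1* had an r of 0.61 with it and 0.56 without it. The neighbours *CLDN3* and *CLDN4* had 0.53 and 0.69, and *CLDN3* and *OCLN* -0.28 and -0.63. These are descriptions of arrays that share normalization and amplification, and 36 pairs were computed.

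**Figure D5:**
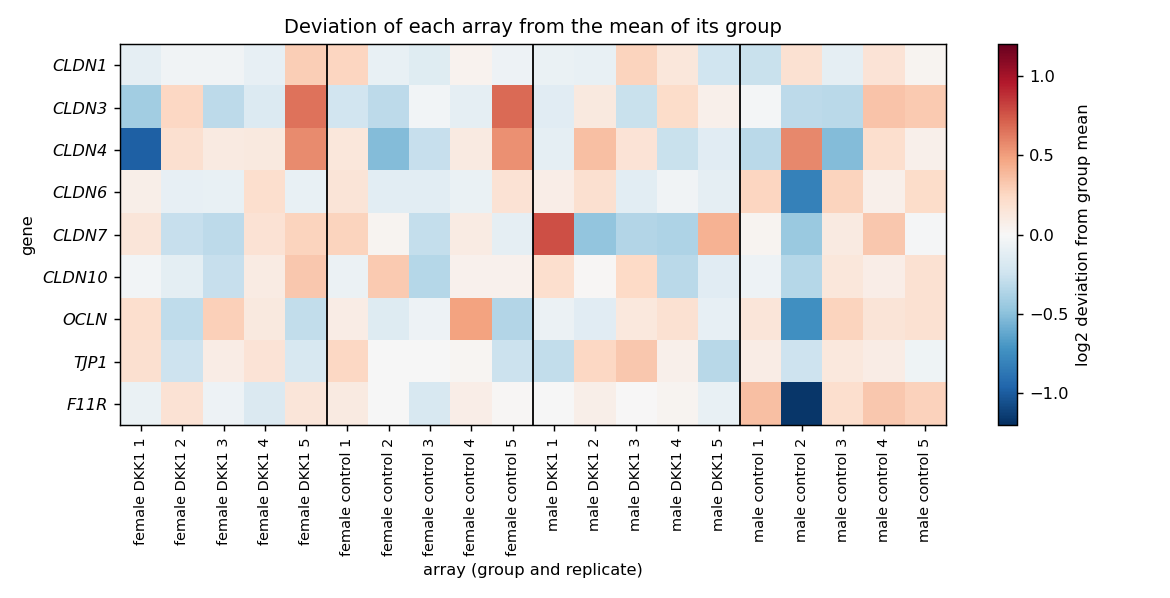
Deviation of each array from its group mean (colour, log2 units) for the 9 genes (y axis) on the 20 arrays (x axis, ordered by group and replicate). Male control replicate 2 is dark blue for *F11R*, *CLDN6* and *OCLN*, while replicate 5 of both female groups is red for *CLDN3* and *CLDN4*.

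Named probe sets of the brighter set were compared with each of the 8 members in that set over the 20 arrays. The pattern most like that of *CLDN3* was *RPS21* (Pearson r 0.83, Spearman rho 0.79), and *CLDN4* was closest to *HPCAL1* (0.80 and 0.80). *OCLN* was closest to *PKN2* (0.89 and 0.83), *TJP1* to *BRMS1L* (0.76 and 0.65), *CLDN7* to *CIR1* (0.77 and 0.77) and *CLDN10* to *MRPS22* (0.77 and 0.76). For *F11R* it was *RPL28* (0.97 and 0.75) and for *CLDN6* it was *HNRNPA1* (0.91 and 0.65). These last Pearson values were 0.63 and 0.57 without male control replicate 2. Each is the highest of 7630 values, so a high r is partly set by the choice.

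Other claudins were mostly dim. Of 18 listed, 15 had a probe set of their own and 1, *CLDN12*, was in the brighter set. At an unadjusted P under 0.05 in limma, 1 of 15 was lower with DKK1 over both sexes, beside 3.97% of all probe sets, *CLDN23*, with a difference of -0.28 (SE 0.122). *CLDN20* alone had an interaction (4.19%), of 0.79 (SE 0.369), and *CLDN11*, a claudin of myelin and Sertoli cells, was the 1 gene that differed by sex (4.82%), lower in females with a difference of -0.27 (SE 0.0972). All 3 lie outside the brighter set and none passed the adjusted P. The median DKK1 difference of the 15 was -0.04. Within males 1 was higher with DKK1, *CLDN12* (0.76, SE 0.323), and 1 lower, *CLDN23* (-0.46, SE 0.172), beside 4.03% of all probe sets, and within females 0 passed, beside 4.09%. *CLDN12* is named here after its values were seen.

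Of 25 other tight junction genes listed, 21 had a probe set of their own and 11 of their 22 probe sets were in the brighter set. For DKK1 over both sexes 0 had an unadjusted P under 0.05, beside 3.97% of all probe sets. *MAGI1*, a multi-PDZ scaffold, alone of the 22 passed unadjusted for the interaction (0.59, SE 0.246), beside 4.19% of all probe sets. It averaged 6.18 ± 0.22 in female DKK1 and 5.78 ± 0.37 in female control embryos, and 6.05 ± 0.24 in male DKK1 and 6.24 ± 0.24 in male control embryos (SD, n = 5). For sex 3 were lower in females, *MARVELD2*, *JAM2* (-0.46, SE 0.203) and the multi-PDZ scaffold *MPDZ* (-0.27, SE 0.119), and 0 were higher, beside 2.32% of all probe sets lower in females at that threshold. *JAM2* and *MPDZ* are outside the brighter set. Within females *MAGI1* alone passed and was higher with DKK1 (0.40, SE 0.174), beside 4.09% of all probe sets. Within males, where 4.03% of all probe sets passed, *CXADR*, an adhesion molecule and virus receptor, was higher with DKK1 (0.40, SE 0.183). There *CGN*, the junction plaque protein cingulin, was lower (-0.42, SE 0.187). Both are named after their values were seen, and neither passed the unadjusted threshold without male control replicate 2, at 0.30 and -0.40. None of these passed the adjusted P.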

How the data were processed

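The deposited log2 intensities are RMA values (background correction, log2 transformation, quantile normalization), for which the authors used Affymetrix Expression Console on Affymetrix Bovine Gene 1.0 ST arrays. Versions are not given in the sources used here. No normalization was added. The files hold no depth, and the number of arrays limits the precision. Names came from the platform annotation, in which 688 of the 26773 probe sets have several symbols and 7628 none. Neighbouring genes were read from the gene table of ARS-UCD2.0.

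Groups came from sample titles, and all 20 arrays were used. Each contrast was estimated in limma 3.58.1 (R 4.3.3) from 4 group means, with no replicate term since the methods name none, over every probe set with Benjamini-Hochberg adjustment. Passing unadjusted means a limma P under 0.05. The code was checked on simulated data. Exact permutation tests used SciPy 1.17.1. The pools were harvested in 5 replicates from several fertilization procedures. The sources used here do not tie a replicate number to a procedure, so P measures the spread between pools, which may be partly technical.

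All 9 genes are named, with the closest pattern to each. From the lists of other claudins and other tight junction genes, those passing unadjusted for DKK1, the interaction or sex are named. Genes and lists were chosen with earlier results of these data known. Alternatives were a replicate block (fixed, then random), an unmoderated fit, a robust prior with intensity trend, array weighting and the brighter set alone. Others were median centring (each array on the median of its brighter set), quantile normalization of the brighter set, and omission of each array.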

Additional observations from a re-analysis of the deposited data

Results flagged for a closer look

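Within groups of 5, the gap of the highest or lowest array to its neighbour was set against the range of the group (Dixon's criterion) for the 9 genes in 4 groups. Of 36 sets, 5 passed, where chance gives about 1 in 20. Of the 5, 3 concern the array labelled male control replicate 2, with 9.59 for *CLDN6*, 7.84 for *OCLN* and 9.27 for *F11R*, each the lowest of its group. Its *XIST* and *DDX3Y* values lie in the female range, as given above, and whether this has a part in the low values was not tested. The other sets were *CLDN1* in female DKK1 embryos, where replicate 5 was highest at 3.68, and *CLDN3* in female control embryos, where replicate 5 was highest at 6.62.

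The effect of DKK1 on *CLDN3* differed between the sexes at an unadjusted P in limma, as did that on 4.19% of all probe sets, and no longer did so without any 1 of 6 arrays, male control replicate 2 among them (-0.64). With all arrays the effect in females minus that in males was -0.72 (adjusted P = 1.00), with 5 of 5 male DKK1 arrays and 0 of 5 female DKK1 arrays above every control of their sex.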

How the results depend on the processing

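Leaving out low values tests fewer probe sets by construction. In the brighter set alone and after its quantile normalization, 359 and 328 probe sets passed unadjusted for DKK1 (1062 over all), 457 and 490 for the interaction (1123), 408 and 434 in females (1096), 425 and 418 in males (1080), and 635 and 667 for sex (1291). The adjusted count for the interaction was 1, and 0 with the replicate block, the unmoderated fit, the brighter set or its quantile normalization. In females it was 1, and 0 under those 4, array weights or median centring. For sex it was 9, against 3 unmoderated, 20 with the robust trend prior, 28 with array weights and 5 after quantile normalization. Centring on the median of the brighter set moved unadjusted DKK1 calls to 251 higher and 787 lower, against 436 and 626. In males it moved them to 297 and 805, against 504 and 576. With it the median DKK1 difference of all probe sets was -0.06. Before it, that median was -0.02, and 0.03 over the brighter set. In the brighter set alone the split ran the other way, with 235 higher and 124 lower for DKK1 and 294 and 131 in males, and after its quantile normalization it was 155 and 173 for DKK1 and 225 and 193 in males. The cause was not tested.

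Of the 9 genes, the replicate block gave 1 passing unadjusted for DKK1 (*CLDN3*) and 1 in females (*CLDN7*), against 0 each. The trend gave 2 in males (*CLDN3* and *CLDN6*), against 1. Over the 8 alternatives that keep every array, 328 to 1166 probe sets passed for DKK1, 408 to 1264 in females and 418 to 1166 in males. The lowest counts come from fits of the brighter set. In the main fit without male control replicate 2, *CLDN6* in males was 0.13 (SE 0.105) and did not pass. Pairing by replicate number was not established, since the 30 same-number pairs had r from -0.18 to 0.13 and 2 exceeded 0.1. Across groups, 12 of 20 arrays matched best with an array of their own number. In each other group 1 of the 5 arrays carries that number, so matches by number were more frequent than an even share. This is a hint from the data and not from the design. The random block estimated a correlation of 0.011 between arrays of the same number.

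Leaving out 1 array gave adjusted counts of 0 to 1 for DKK1, the interaction and females, and 4 to 20 for sex, highest without male control replicate 2. Of the 9 genes, 0 to 1 passed unadjusted for DKK1, in females and for sex, 0 to 2 for the interaction, and 1 to 2 in males. Of all 26773 probe sets, 931 to 1224 passed for DKK1, 1004 to 1334 in females and 1207 to 1611 for sex. For the interaction 984 to 1247 passed, and in males 918 to 1467. *CLDN3* in males passed unadjusted under all 28 alternatives, and 0 of the 9 genes passed the adjusted threshold under any. Many of the 28 could not move the male difference, which comes from the male group means. Leaving out a female array changes only its SE and P, as do the replicate block, the unmoderated fit and the trend prior. Of 1250 values for these genes, 17 newly passed, 6 no longer did, and none that passed turned its sign. With 5 arrays a group, the 95% intervals given above bound what could be seen.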
